A study of Mus musculus with 7 samples.

Results

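The mitochondrial ribosomal protein genes were taken as all protein-coding genes of the mouse annotation whose symbol begins with Mrps or Mrpl followed by a number. The rule gave 78 genes of 53379 in the count tables, 29 with small-subunit names (Mrps) and 49 with large-subunit names (Mrpl), and used no measured value. They were read in mRNA libraries of EpCAM-selected endometrial epithelial cells, which cover the uterine cavity and form the glands. The 4 mutant libraries were made from 1 mouse each, CD-1 animals aged 120 days of genotype LtfCre 0/+; Brg1 fl/fl, in which Cre recombinase is driven by the lactoferrin gene Ltf, active in uterine epithelium, and both copies of Brg1 are floxed. The floxed gene, Smarca4, makes Brg1, the motor subunit of SWI/SNF complexes, which move nucleosomes. For each of the 3 control libraries wild-type CD-1 mice were pooled, and these libraries were carried over from an earlier series, with no age given in the sources used here. Mice with floxed Brg1 but no Cre, and mice with Cre alone, are not among these groups. Genotype, library set and pooling of mice cannot be told apart in any comparison below.

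Reads counted in genes numbered 12436971 to 13364080 in the mutant libraries, and 21372036 to 25862245 in the control libraries. Levels are counts per 1000000 reads (CPM) of library sizes scaled by the trimmed mean of M-values (TMM), so that they match the fold changes, which are log2 of mutant over control with their standard error (SE). Smarca4 had 87.4, 56.6, 86.7 and 105.2 CPM in mutant libraries 1 to 4, against 263, 245 and 279 CPM in control libraries 1 to 3. Its log2 fold change was −1.64 ± 0.23 with an adjusted p of 0.00967 (edgeR quasi-likelihood F test, Benjamini-Hochberg over 14610 genes, as for every adjusted p below unless another tool is named). The 6 epithelial markers, Epcam, Krt8, Krt18, Krt19, Cdh1 and Cldn4, summed to between 6845 and 10208 CPM in mutants, against 14403 to 17264 CPM in controls. Summed levels of the 6 stromal fibroblast markers were 199 to 418 CPM in mutants, against 496 to 631 CPM in controls. The 6 smooth muscle and pericyte markers, the 5 endothelial markers and the 6 immune markers summed to at most 81.8, 16.6 and 271.6 CPM in any mutant library, and at most 106, 19.2 and 228 CPM in any control library. Of the 3 red cell markers, Hba-a1 was at 0 in all 7 libraries, Hbb-bs had reads in mutant library 1 alone, and Alas2 was at 6.25 CPM in mutant library 1, against 0.0766 to 1.09 CPM in mutants 2 to 4 and 0.895 to 1.74 CPM in controls. Rgs5 of the pericyte list was at 7.81 CPM in mutant library 1, 0 in mutants 2 and 3 and 0.122 CPM in mutant 4, against 0.474 to 0.998 CPM in controls. Of the immune list, Ptprc at 56.7 CPM and Adgre1 at 40.9 CPM were highest in mutant library 1. The other 4 were below every control there, with Cd3e at 0, Cd68 at 35.3 CPM, Itgam at 5.31 CPM and Cd79a at 0.312 CPM. In bulk RNA, fewer cells of a type and less RNA per cell cannot be told apart. Mutant library 1 stood apart from the other mutants. Mki67, a marker of dividing cells, was at 12.3 CPM there, against 268, 368 and 193 CPM in mutants 2 to 4 and 72.4, 91.7 and 128 CPM in controls. Ltf was at 82.5 CPM in mutant library 1, against 2019, 1143 and 1543 CPM in mutants 2 to 4 and 3027, 2934 and 3679 CPM in controls. The fits were therefore also made without mutant library 1.

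Mitochondria translate their own genome's few mRNAs, all coding for subunits of the respiratory chain and ATP synthase, on ribosomes of their own. The RNA of these ribosomes is made inside the organelle, while every protein of them is encoded in the nucleus, made in the cytosol and imported. Some of the proteins have a bacterial counterpart and others are found only in mitochondria. The small subunit reads the mRNA, and the large subunit joins the amino acids and carries the stalk on which translation factors act. Dividing tissues such as the cycling endometrium need this machinery to furnish new mitochondria.

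The members lie on 17 chromosomes, with 11 on chromosome 11 and 8 on chromosome 17. RefSeq promoter windows (GRCm38.p6, 250 bases before to 50 after the start) matched 69 of the 78 by symbol. They were searched on both strands for short exact motifs. The ETS motif CCGGAAGT was in 12 of 69 members (17.4%, against 5.94% of 16522 promoters). The NRF1 motif, GCGC, any base and TGCGC, was in 13 members (18.8%, against 7.44%), and the YY1 motif AAGATGGCG in 8 (11.6%, against 2.25%). At least 1 of the 3 motifs was in 31 members (44.9%, against 14.5%), while TATAAA was in 5 (7.25%, against 14.3%). Members also had short coding transcripts, with a median length of 1224.5 bases against 2302.75 for all coding genes. A coding gene on the opposite strand started within 1000 bases, running away from the member, for 18 of 78 (23.1%, against 6.77% of 22028 coding genes). These shares are descriptions, and a match of letters is not a measured binding site. The windows below run 150 bases, from 120 before the start through 30 after it, with capitals marking the motif. They stand for each motif (Mrpl12, Mrps22, Mrps11), for the most abundant member, which was among the lower ones (Mrpl52), and for 2 of the members furthest above the controls, which have none of the 3 motifs (Mrpl47, Mrps2). Of other members described below as high, Mrpl18 has the ETS motif and Mrpl39 the NRF1 motif. Mrpl22, Mrpl40, Mrps31 and Mrps36 have none of the 3.
Mrpl12, NRF1, chr11:120484517-120484666, plus strand: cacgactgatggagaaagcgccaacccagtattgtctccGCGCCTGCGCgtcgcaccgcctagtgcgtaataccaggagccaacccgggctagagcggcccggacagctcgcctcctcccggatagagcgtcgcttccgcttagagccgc
Mrps22, ETS, chr9:98601650-98601799, minus strand: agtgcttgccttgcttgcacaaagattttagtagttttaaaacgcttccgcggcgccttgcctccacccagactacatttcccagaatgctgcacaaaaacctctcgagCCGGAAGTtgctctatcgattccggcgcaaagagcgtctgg
Mrps11, YY1 on the other strand, chr7:78783011-78783160, plus strand: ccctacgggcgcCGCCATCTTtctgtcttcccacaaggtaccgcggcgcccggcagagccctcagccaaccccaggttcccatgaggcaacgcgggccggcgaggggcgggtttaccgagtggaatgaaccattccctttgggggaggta
Mrpl52, ETS on the other strand, chr14:54426789-54426938, plus strand: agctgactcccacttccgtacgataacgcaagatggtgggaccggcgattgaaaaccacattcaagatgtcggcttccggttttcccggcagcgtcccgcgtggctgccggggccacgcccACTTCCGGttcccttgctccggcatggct
Mrpl47, chr3:32736726-32736875, minus strand: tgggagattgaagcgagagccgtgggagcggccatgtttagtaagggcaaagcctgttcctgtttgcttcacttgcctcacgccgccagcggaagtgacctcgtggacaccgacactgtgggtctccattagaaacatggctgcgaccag
Mrps2, chr2:28467946-28468095, plus strand: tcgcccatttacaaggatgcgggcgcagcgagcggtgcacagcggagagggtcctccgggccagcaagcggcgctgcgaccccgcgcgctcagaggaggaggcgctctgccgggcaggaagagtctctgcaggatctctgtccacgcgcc

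The comparison of mutant with control asks how these genes stood in uterine epithelium of mice with LtfCre and floxed Brg1. At the adjusted threshold of the main edgeR fit, Mrps28 passed as lower and no member as higher. Most of the others lay slightly above the controls without passing. Of the 78 members, 77 had enough counts to be tested. Among all genes tested, 5.37% passed as higher and 6.18% as lower at an adjusted p under 0.05 (11.5% in all). Among the members 0 passed as higher and 1 as lower. At an unadjusted p under 0.05, 19 members were higher (24.7%, against 16.4% of all genes) and 2 lower (2.6%, against 14.6%). The fold change was above 0 for 66 of 77 members (85.7%, against 53.5% of all genes). Its median over the members was 0.40, with the middle 50% between 0.21 and 0.69 and the extremes at −0.82 and 1.32, beside a median of 0.06 over all genes. The members' median stood above that of all genes by 0.23 to 0.54 in each of the 15 alternative fits. Groups did not overlap for 14 members that were higher in mutants (18.2%, against 15.4% of all genes) and 3 that were lower (3.9%, against 16.1%). DESeq2 on the same counts called 12 members higher (15.6%, against 12.4%) and 2 lower (2.6%, against 11.3%), and limma-voom called 0 and 1. The authors' deposited table, also made with DESeq2, lists 10 members as higher (13%, against 8.85% of its genes with an adjusted p) and 1 as lower (1.3%, against 8.34%). The 10 are Mrpl47, Mrpl22, Mrps2, Mrpl18, Mrpl15, Mrps36, Mrpl40, Mrps31, Mrpl39 and Mrps21, with log2 fold changes there of 0.59 for Mrps21 to 1.33 for Mrpl47.

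**Figure D1:**
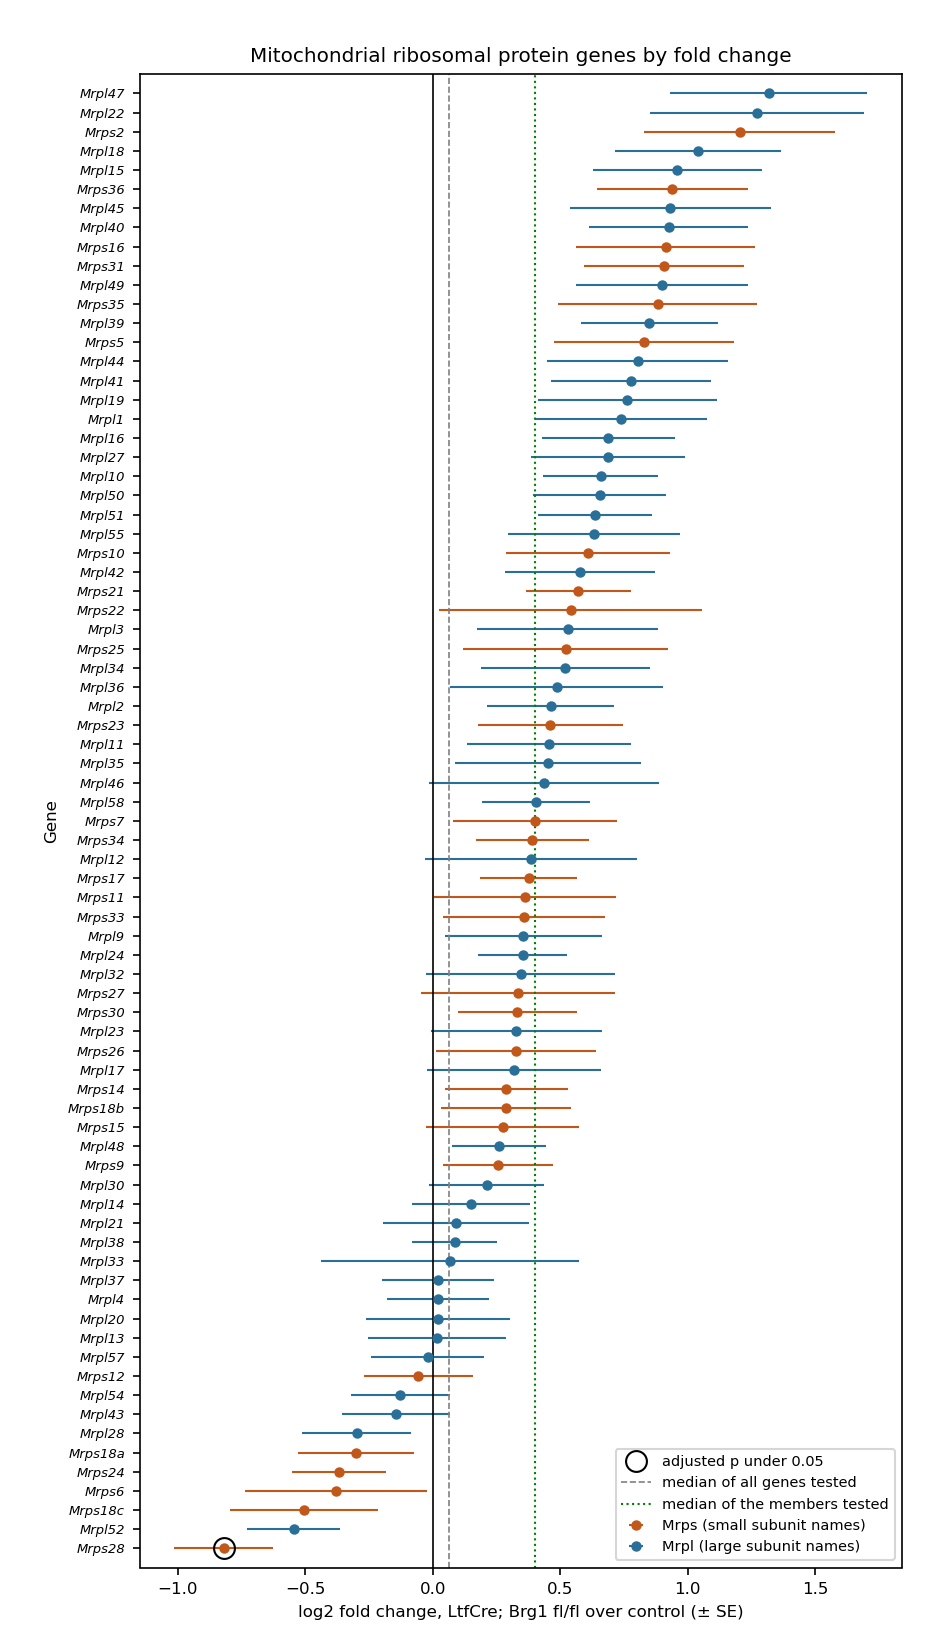
Log2 fold change (x axis, LtfCre; Brg1 fl/fl over control) of the 77 tested members (y axis, ordered by value); points are estimates, bars ± SE, orange for Mrps and blue for Mrpl names. Most points lie right of 0 with a median of 0.40 (dotted line, against 0.06 for all genes, dashed line), and only Mrps28, at the bottom, is circled as past the adjusted p threshold.

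The mutant libraries were not alike in these genes. Relative to the controls' mean on the log2 scale, the median member stood at −0.13, 0.67, 0.78 and 0.28 in mutant libraries 1 to 4, against −0.16, −0.05 and 0.16 in the controls. Over all genes tested the same medians lay between −0.02 and 0.02 in every library. The median of mutant library 1 was thus inside the range of the controls' medians, and those of the other 3 mutants were above it. All members together summed to 1297, 2097, 2230 and 1680 CPM in mutants 1 to 4, against 1314, 1430 and 1639 CPM in controls. In mutants 1 to 4, 17, 58, 64 and 45 members were above every control (22.1%, 75.3%, 83.1% and 58.4%, against 40.7%, 39.5%, 40% and 38.8% of all genes). In the same libraries 35, 7, 6 and 8 members were below every control (45.5%, 9.09%, 7.79% and 10.4%, against 40.4%, 42%, 41.9% and 40.4% of all genes). Mutant library 1 thus had more members below every control than above. Mutant library 1 was the lowest mutant for 60 of 77 members (77.9%, against 35.3% of all genes), and mutant library 3 the highest for 49. Mutants 2 to 4 were all above every control for 42 members (54.5%, against 23.6% of all genes). The median SD of a member's log2 CPM was 0.42 in mutants and 0.21 in controls, and 0.27 in mutants without library 1. Over all genes tested these values were larger, at 0.52, 0.24 and 0.38, so this spread is not particular to the members. Mki67, given above, put the 4 mutants in the same order. The smooth muscle and pericyte markers, highest in mutant library 1, summed to 81.8, 7.50, 12.9 and 30.6 CPM in mutants 1 to 4, against 106, 67.0 and 68.0 CPM in controls. The part of Mki67 or of these markers in the result was not tested.

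**Figure D2:**
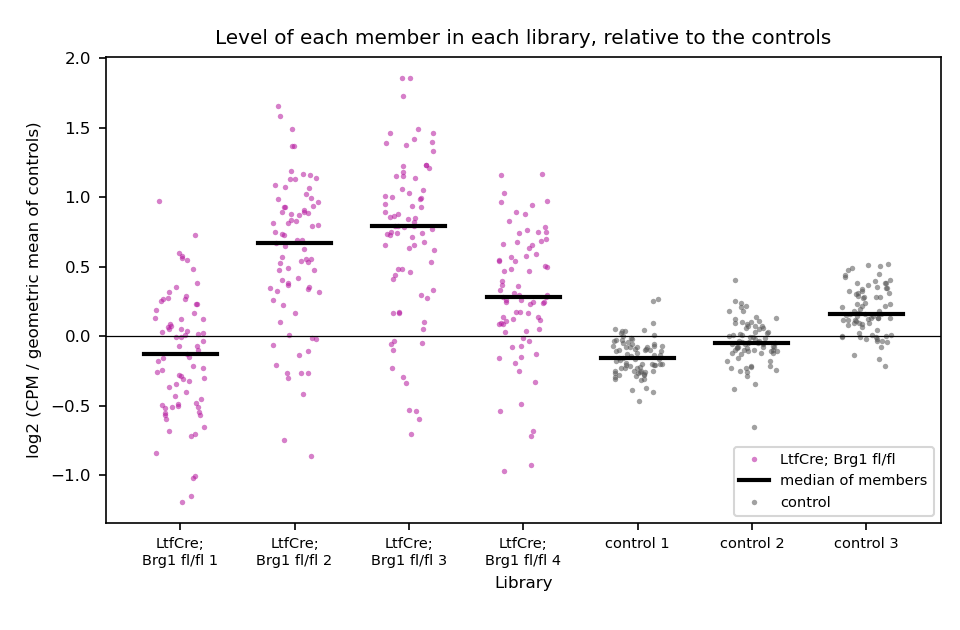
Level of each tested member in each library (y axis, log2 of CPM over the controls' geometric mean; x axis, the 4 LtfCre; Brg1 fl/fl libraries in magenta and the 3 controls in grey), with black bars at the median. The medians of mutants 2, 3 and 4, at 0.67, 0.78 and 0.28, lie above all controls, and mutant 1, at −0.13, lies among them.

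Without mutant library 1, the same test called 28 members higher (36.4%, against 15.5% of all genes) and 1 lower (1.3%, against 14% of all genes), with a median fold change of 0.60. Without any other library it called 0 in either direction, at medians of 0.29 to 0.55. Those fits called few of all genes. Without mutant libraries 2, 3 or 4, 2.62%, 1.71% and 2.59% were called higher, and 617, 374 and 556 genes lower. Without control libraries 1, 2 or 3, 0.324%, 0.375% and 0.296% were called higher, and 84, 112 and 92 genes lower. The 28 members called higher without mutant library 1 comprised 22 Mrpl and 6 Mrps genes. Their fold changes in that fit ran from 0.56 ± 0.17 for Mrpl58 (adjusted p = 0.0498) to 1.55 ± 0.31 for Mrpl47 (adjusted p = 0.0129). Scaling also mattered. With total gene counts as library sizes the median over all genes moved to 0.41 and that over the members to 0.76, and 17 members were called higher (22.1%, against 15.1% of all genes). With upper-quartile scaling these medians were 0.20 and 0.54, and 2 members, Mrpl47 and Mrpl39, were called higher (2.6%, against 8.06%).

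Mrps28, a small-subunit protein with a bacterial counterpart, was the only member past the threshold in the main fit, as lower. It is encoded on the minus strand of chromosome 3 (chr3:8802146-8923918, GRCm38, GENCODE M21). It had 13.0, 12.9, 15.4 and 11.9 CPM in mutants, against 20.3, 24.9 and 25.4 CPM in controls. Every mutant was below every control, and mutant library 1 was like the other mutants. The group means were 13.3 ± 1.502 CPM in mutants (SD, n = 4) and 23.5 ± 2.78 CPM in controls (n = 3). The log2 fold change was −0.82 ± 0.19 with an adjusted p of 0.0390. The adjusted p was 0.000703 in DESeq2, and the authors' deposited table gives a log2 fold change of −0.81 with an adjusted p of 0.00710. Among the edgeR and limma-voom fits it ranged from 0.0266 without mutant library 1 to 0.212 with the replicate number as a block, with 0.144 for total-count and 0.0545 for upper-quartile scaling and 0.0945 with no filter. It missed the threshold without mutant libraries 2, 3 or 4 (0.0794, 0.0651 and 0.0855) and without control libraries 1, 2 or 3 (0.116, 0.160 and 0.156). The direction was the same in all 15 alternatives.

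Mrpl52 and Mrps18c were the other members whose groups did not overlap with mutants lower, and neither passed. Mrpl52, a mitochondria-specific protein of the large subunit, had 32.3, 39.2, 29.0 and 29.4 CPM in mutants, against 42.0, 47.5 and 52.8 CPM in controls. Its log2 fold change was −0.55 ± 0.18 (adjusted p = 0.0942; 0.0341 in DESeq2). Mrps18c was at 3.12, 5.28, 5.17 and 4.38 CPM in mutants and 6.21, 5.70 and 7.21 CPM in controls, with a log2 fold change of −0.51 ± 0.29 (adjusted p = 0.279). For Mrps18c, 23.2% of the exon sequence overlaps Gm43511 on the same strand, where reads count for neither gene, so its level is uncertain.

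The members with the highest fold changes were Mrpl47, Mrpl22, Mrps2 and Mrpl18, from both subunits. Mrpl47, which sits by the exit of the peptide tunnel, had 5.78, 13.0, 14.96 and 7.66 CPM in mutants, against 3.84, 4.01 and 4.58 CPM in controls. Mrps2, a small-subunit protein with a bacterial counterpart, had 9.84, 22.6, 24.95 and 12.1 CPM in mutants, against 7.42, 7.81 and 7.35 CPM in controls. Mrpl18, a protein of the central protuberance of the large subunit, had 18.1, 39.7, 43.4 and 26.0 CPM in mutants, against 14.9, 14.6 and 16.9 CPM in controls. In these 3 genes every mutant was above every control, with libraries 2 and 3 high and library 1 nearest the controls. The log2 fold changes were 1.32 ± 0.39 for Mrpl47, 1.21 ± 0.37 for Mrps2 and 1.04 ± 0.32 for Mrpl18, at adjusted p of 0.0678, 0.0778 and 0.0786. Without mutant library 1 all 3 passed, at 1.55 ± 0.31, 1.44 ± 0.29 and 1.27 ± 0.22 (adjusted p = 0.0129, 0.0142 and 0.00913). In the authors' deposited table they are 1.33, 1.22 and 1.06, at adjusted p of 0.00525, 0.0164 and 0.0247. Mrpl22, a large-subunit protein with a bacterial counterpart, had 4.84, 11.3, 14.6 and 9.06 CPM in mutants, against 3.53, 3.43 and 5.40 CPM in controls. Its groups overlapped through mutant library 1, and the log2 fold change was 1.27 ± 0.42 (adjusted p = 0.0912; 0.0221 in DESeq2), and 1.54 ± 0.31 without that library (adjusted p = 0.0131). For Mrpl47, 23.3% of its 50-base words also occur in other genes or overlapping neighbours, which makes its counts less certain.

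Mrpl40, a mitochondria-specific protein of the large subunit, had 12.3, 21.2, 30.2 and 22.1 CPM in mutants, against 11.6, 10.5 and 11.8 CPM in controls. Mrps31, specific to mitochondria in the small subunit, had 5.47, 7.89, 10.5 and 9.98 CPM in mutants, against 4.58, 5.07 and 3.86 CPM in controls. Mrpl39, also specific to mitochondria, had 28.5, 42.7, 36.1 and 38.2 CPM in mutants, against 14.9, 17.9 and 27.7 CPM in controls. Groups did not overlap in these 3 genes, though mutant library 1 came within 1 CPM of the highest control in each. With all libraries none passed, with log2 fold changes of 0.93 ± 0.31 for Mrpl40, 0.91 ± 0.31 for Mrps31 and 0.85 ± 0.27 for Mrpl39, at adjusted p of 0.0948, 0.101 and 0.0806. All 3 passed without mutant library 1, at 1.16 ± 0.20, 1.11 ± 0.26 and 0.997 ± 0.25 (adjusted p = 0.00939, 0.0222 and 0.0271). Mrps36, named as a ribosomal protein but placed by later work in the oxoglutarate dehydrogenase complex, had 5.54, 5.51, 6.29 and 4.75 CPM in mutants, against 3.37, 2.17 and 3.09 CPM in controls. Its 4 mutants were alike and above every control, with a log2 fold change of 0.94 ± 0.30 (adjusted p = 0.0806). It shares 17.3% of its 50-base words with annotated pseudogenes and other loci.

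**Figure D3:**
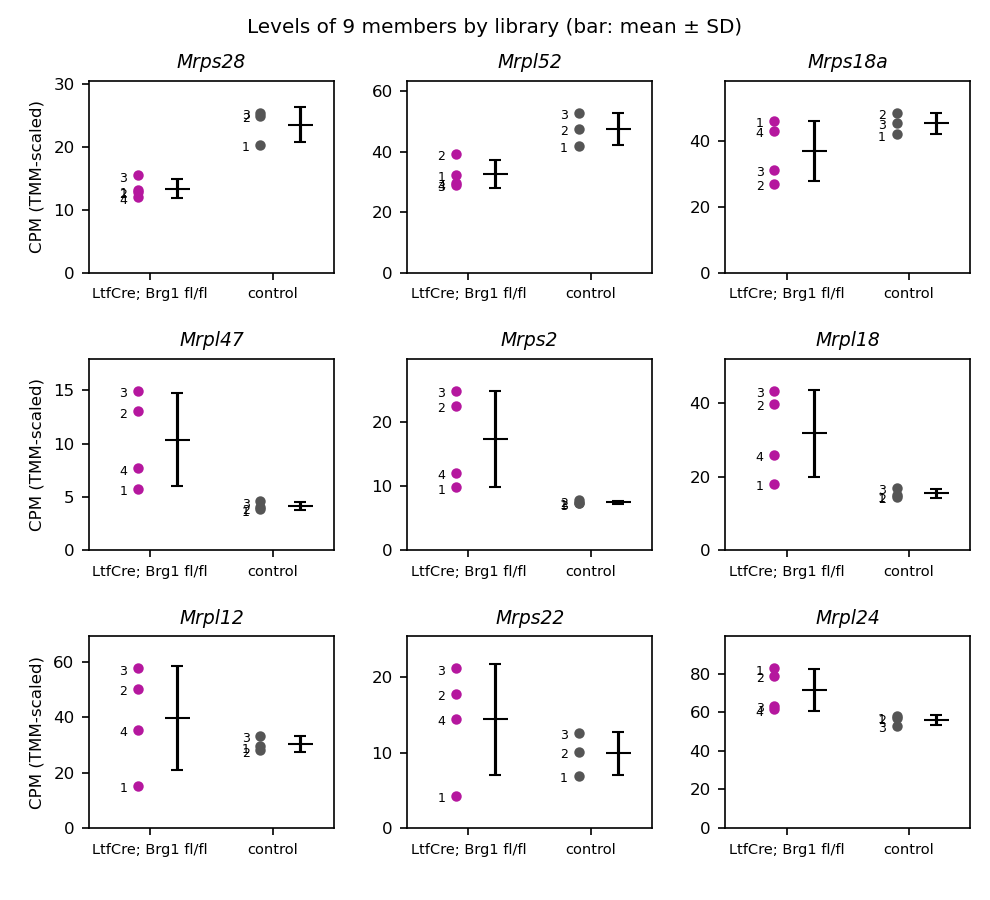
Levels of 9 members in CPM (y axes, starting at 0) in the 4 LtfCre; Brg1 fl/fl libraries (magenta) and the 3 controls (grey), numbered by library, with mean ± SD beside them. Mutants lie below all controls for Mrps28 and Mrpl52 and above them for Mrpl47, Mrps2, Mrpl18 and Mrpl24, while for Mrpl12 and Mrps22 mutant 1 lies below all controls and mutants 2 to 4 above.

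Among the stalk proteins, on which elongation factors dock, Mrpl12 followed the libraries most widely. It had 15.1, 50.1, 57.6 and 35.5 CPM in mutants, against 29.5, 28.0 and 33.3 CPM in controls, so that mutant library 1 was below every control and the other 3 mutants above. Its log2 fold change was 0.39 ± 0.42 (adjusted p = 0.564), was below 0 with unstranded counts, and was 0.70 ± 0.20 without mutant library 1 (adjusted p = 0.0404). Mrpl10, which anchors the stalk, had 23.9, 38.5, 41.9 and 33.9 CPM in mutants and 22.3, 21.1 and 22.3 CPM in controls. Every mutant was above every control, and the log2 fold change of 0.66 ± 0.23 missed the threshold (adjusted p = 0.0999). It passed without mutant library 1, at 0.84 ± 0.15 (adjusted p = 0.0102). Mrpl11, at the base of the stalk, had 15.1, 33.5, 34.8 and 23.6 CPM in mutants and 17.5, 17.002 and 23.9 CPM in controls. Its groups overlapped through mutant libraries 1 and 4 (0.46 ± 0.32, adjusted p = 0.374).

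Mrps12 lies at the decoding centre, where codon and anticodon meet. It was at 19.1, 13.2, 15.5 and 13.3 CPM in mutants, against 14.8, 15.9 and 16.97 CPM in controls, with mutants on both sides of the controls (−0.06 ± 0.22, adjusted p = 0.884). Mrpl3, near the site of peptide bond formation, had 15.3, 34.5, 45.2 and 31.4 CPM in mutants, against 17.7, 22.8 and 25.1 CPM in controls. Its log2 fold change was 0.53 ± 0.36 (adjusted p = 0.350), and 0.80 ± 0.21 without mutant library 1, the lowest of all libraries (adjusted p = 0.0303). Mrpl24, whose bacterial counterpart starts assembly of the large subunit, had 82.8, 78.9, 63.2 and 61.6 CPM in mutants, against 58.0, 57.2 and 53.0 CPM in controls. Here the order of the mutants was another one, with library 1 the highest, and groups did not overlap (0.35 ± 0.17, adjusted p = 0.214).

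Mutations of Mrps22, Mrps16, Mrpl3 and Mrpl44 cause mitochondrial disease in humans. Mrps22 had 4.22, 17.8, 21.2 and 14.5 CPM in mutants, against 6.95, 10.1 and 12.7 CPM in controls. Like Mrpl12, it was lowest of all in mutant library 1 and above every control in the other 3 mutants (0.54 ± 0.52, adjusted p = 0.515). Mrps16 had 10.3, 21.3, 26.8 and 19.6 CPM in mutants, against 7.84, 11.2 and 11.98 CPM in controls. Mrpl44 had 7.57, 17.4, 17.5 and 12.6 CPM in mutants, against 6.21, 7.55 and 9.89 CPM in controls. In both genes mutant library 1 was within the controls and the other 3 mutants were above them. The log2 fold changes of Mrps16 and Mrpl44 were 0.91 ± 0.35 and 0.80 ± 0.36, at adjusted p of 0.128 and 0.171, and both passed without mutant library 1 (adjusted p = 0.0145 and 0.0256).

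A few members work at the edge of the ribosome or were named to the wrong subunit. Mrpl58, a peptidyl-tRNA hydrolase built into the large subunit, had 15.5, 19.8, 24.2 and 20.99 CPM in mutants, against 15.006, 15.4 and 15.1 CPM in controls. Every mutant was above every control, library 1 only just, and the log2 fold change was 0.41 ± 0.21 (adjusted p = 0.236), and past the threshold without that library, as given above. Mrps30, found in the large subunit despite its name, had 20.3, 27.6, 36.3 and 25.9 CPM in mutants, against 19.4, 22.9 and 23.2 CPM in controls (0.33 ± 0.23, adjusted p = 0.372), with mutant library 1 within the controls. Mrpl57 had 13.0, 14.3, 16.4 and 18.9 CPM in mutants, against 14.1, 15.2 and 18.3 CPM in controls. Its groups overlapped (−0.02 ± 0.22, adjusted p = 0.959), and without mutant library 1 the value was 0.11 ± 0.21 (adjusted p = 0.728). The signs of Mrps12, Mrpl57 and Mrpl54 turned positive under upper-quartile scaling and under total-count scaling.

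Mrps18a, Mrps18b and Mrps18c are homologues of the same bacterial protein, of which Mrps18a is found in the large subunit. Mrps18a was at 46.1, 27.0, 31.4 and 43.1 CPM in mutants, against 42.1, 48.6 and 45.7 CPM in controls. Mutant libraries 2 and 3 were below the controls and libraries 1 and 4 within them (−0.30 ± 0.23, adjusted p = 0.406, above 0 with total-count scaling). Mrps18b was at 18.3, 20.1, 30.5 and 19.1 CPM in mutants, against 15.006, 21.3 and 17.8 CPM in controls. Only mutant library 3 was outside the range of the controls (0.29 ± 0.26, adjusted p = 0.484, below 0 with unstranded counts). Per kilobase of merged exons, the mean levels were 10.001 in mutants and 12.3 in controls for Mrps18a, 10.5 and 8.64 for Mrps18b, and 4.17 and 5.93 for Mrps18c. The differences between the 3 genes' fold changes were not tested.

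By subunit name, 0 of the 29 Mrps genes passed as higher and 1 as lower (edgeR, beside 5.37% and 6.18% of all genes). Their median fold change was 0.36, with 23 values above 0 (79.3%, against 53.5% of all genes). None of the 48 tested Mrpl genes passed in either direction (edgeR), with a median of 0.46 and 43 values above 0 (89.6%). At an unadjusted edgeR p under 0.05, 13 Mrpl genes were higher and 1 lower, beside 16.4% and 14.6% of all genes. DESeq2 called 8 Mrpl genes higher and 1 lower, beside 12.4% and 11.3% of all genes. Without mutant library 1, 6 Mrps genes (20.7%) and 22 Mrpl genes (45.8%) were called higher, against 15.5% of all genes. The difference between the Mrps and Mrpl genes was not tested. The 48 members with a bacterial counterpart had a median of 0.37, and the 29 tested mitochondria-specific members 0.46. Both lie above the 0.06 of all genes. Members with at least 1 of the ETS, NRF1 and YY1 motifs had a median fold change of 0.35 (31 genes), and those with a promoter window but none of them 0.46 (37 genes).

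Levels between genes were compared per kilobase of merged exons, as CPM per kilobase averaged over the 7 libraries. The most abundant members were Mrpl52 at 35.1, Mrps21 at 32.2, Mrps6 at 29.0, Mrpl24 at 28.8 and Mrpl54 at 24.5. The least abundant were Mrpl23 at 0.983, Mrps10 at 1.47, Mrpl47 at 1.74, Mrpl48 at 1.79 and Mrps31 at 2.05. Mrpl52 was also the most abundant per kilobase of coding transcript, at 88.3. Several low values depend on long merged exons, since by coding transcript Mrps10 was at 11.2, Mrpl48 at 7.81 and Mrpl23 at 6.94. Of the abundant genes, Mrps21, a small-subunit protein with a bacterial counterpart, had 30.3, 28.3, 26.5 and 25.5 CPM in mutants, against 17.1, 15.4 and 23.3 CPM in controls. Its mutants were close together and above every control, with a log2 fold change of 0.57 ± 0.21 (adjusted p = 0.113; 0.0446 in DESeq2). Mrps6 had 22.9, 60.7, 47.4 and 26.7 CPM in mutants, against 47.5, 44.9 and 61.3 CPM in controls. Mutant libraries 1 and 4 were below every control and libraries 2 and 3 within them (−0.38 ± 0.36, adjusted p = 0.510). The value without mutant library 1 was −0.15 ± 0.30 (adjusted p = 0.725), and 19.9% of its exon sequence overlaps other genes on the same strand. Mrpl54 had 18.7, 17.2, 20.4 and 21.5 CPM in mutants, against 18.1, 21.2 and 24.4 CPM in controls (−0.13 ± 0.19, adjusted p = 0.691). Of the scarce genes, Mrpl48 had 15.5, 16.3, 14.7 and 16.2 CPM in mutants, against 13.1, 12.1 and 14.0 CPM in controls. Its groups stood apart by a small step (0.26 ± 0.18, adjusted p = 0.376). Mrps10 had 13.4, 15.7, 17.5 and 9.06 CPM in mutants, against 8.06, 6.97 and 12.3 CPM in controls (0.61 ± 0.32, adjusted p = 0.242). Mrpl23 had 4.53, 5.36, 6.78 and 4.38 CPM in mutants, against 3.26, 3.49 and 5.81 CPM in controls (0.33 ± 0.33, adjusted p = 0.543). Both overlapped the controls.

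Mrpl53 was listed at 0 in all 7 libraries and could not be tested. Of its exon sequence, 88.0% lies within Gm42688 on the same strand (chr6:83109040-83109939, plus strand), where reads count for neither gene, and Gm42688 itself had 0 to 0.487 CPM. The floor of 3 reads is 0.224 to 0.241 CPM in mutants, against 0.116 to 0.140 CPM in controls, but it does not bound the expression of a gene whose reads are ambiguous. Reads set aside as ambiguous made up 1.06% to 1.29% of a mutant library and 0.827% to 0.869% of a control library. Counts are also uncertain for Mrps34, with 37.0% of its exon sequence within Nme3, and for Mrps25, for which 68.2% of the 50-base words recur in other or overlapping genes. Of the members described above, this share was 30.2% for Mrps18b, 23.3% for Mrpl24, 22.4% for Mrpl22 and 13.7% for Mrpl48. It was 12.3% for Mrpl10, 11.8% for Mrpl23 and 10.01% for Mrpl18. With unstranded counts the sign differed for 4 of 77 members, Mrpl12, Mrpl14, Mrps11 and Mrps18b, all above 0 in the stranded counts. Genes on the opposite strand overlap 13.1%, 11.2%, 7.97% and 30.5% of their exon sequence. The 5 annotated pseudogenes named after members were no members and summed to 2.38 to 3.83 CPM in mutants, against 0.263 to 1.68 CPM in controls.

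Of the 18 members with a coding gene starting back to back, 17 had both genes tested. The partners had a median log2 fold change of 0.19 and these members 0.35. Of the partners, Mitd1, beside Mrpl30, rose (1.49 ± 0.33, adjusted p = 0.0318) and Fau, beside Mrpl49, fell (−0.66 ± 0.15, adjusted p = 0.0368). Fau, which encodes a cytosolic ribosomal protein, had 178, 176, 151 and 169 CPM in mutants, against 239, 282 and 278 CPM in controls. Mrpl49 had 14.4, 31.3, 37.5 and 24.3 CPM in mutants, against 12.005, 15.6 and 15.6 CPM in controls (0.90 ± 0.34, adjusted p = 0.122), and passed without mutant library 1, at 1.15 ± 0.22 (adjusted p = 0.0118). The pair thus had fold changes of opposite sign. Mrps11 and Mrpl46, whose annotated ends overlap in GENCODE and which are not among the 18, start head to head 42 bases apart on chromosome 7 in RefSeq. They had fold changes of 0.36 and 0.44, neither past the threshold.

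Other genes of mitochondrial translation were read from lists of known genes in the same fit, beside 5.37% of all genes called higher and 6.18% lower. None of 5 other mitochondrial ribosomal proteins passed (edgeR; 2 higher and 0 lower at an unadjusted p under 0.05), at a median fold change of 0.35, with Dap3 at 0.35 ± 0.19. Of 16 translation factors, 3 rose and 0 fell, at a median of 0.50. They were Mtrf1, a release factor (2.35 ± 0.38), Taco1, an activator of translation of the cytochrome oxidase mRNA (2.21 ± 0.39), and Mtfmt, which formylates the initiator tRNA (1.87 ± 0.32). Taco1 had 4.29, 9.19, 9.02 and 5.66 CPM in mutants, against 1.26, 1.69 and 1.59 CPM in controls, and mutant library 1, though the lowest mutant, was above every control. Of 27 assembly and ribosomal RNA factors, 3 rose and 1 fell, at a median of 0.44. Gtpbp10, a GTPase of large-subunit maturation, rose by 1.48 ± 0.33 and Nsun4, an RNA methyltransferase, by 1.03 ± 0.23. Ddx28, a helicase of large-subunit assembly, fell by 1.60 on the log2 scale (SE 0.37). Of 22 mitochondrial aminoacyl-tRNA synthetase and related genes, 4 rose and 0 fell, at a median of 0.43, among them Rars2 (1.15 ± 0.21) and Gatc (1.06 ± 0.27).

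Without mutant library 1 the counts called higher were 3 for the other ribosomal proteins, 7 for the factors, 7 for assembly and 9 for the synthetases (60%, 43.8%, 25.9% and 40.9%, against 15.5% of all genes). Without any 1 control library they were 0 for all 4 of these lists, where 0.296% to 0.375% of all genes were called higher, and 0 assembly genes were called lower. Without mutant libraries 2, 3 or 4, where 2.62%, 1.71% and 2.59% of all genes were called higher, 3 of the factors and 0 of the assembly genes were called higher, and 1, 0 and 1 of the synthetases, while 1, 0 and 0 assembly genes were called lower.

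Of 22 genes of mitochondrial transcription, RNA processing and their regulators, 2 rose and 1 fell, at a median of −0.04, which was above 0 with upper-quartile and total-count scaling. Tefm, the transcription elongation factor, rose (2.90 ± 0.69) and so did Pnpt1, an RNA-degrading enzyme (0.71 ± 0.18). Myc, a transcription factor that promotes growth, had 101, 191, 159 and 177 CPM in mutants, against 322, 272 and 312 CPM in controls, and fell by 0.94 on the log2 scale (SE 0.24, adjusted p = 0.0451). Without mutant library 1 the counts were 4 higher (18.2%, against 15.5% of all genes) and 4 lower (beside 14% of all genes). Without any other library they were 0 and 0, in fits that called few of all genes, as given above.

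Of the 13 mRNAs made by the mitochondrial genome, 7 could be tested, at a median of 0.20. In each library 5 or 6 of the 13 had 0 reads, though together the 13 summed to 14761 to 21144 CPM. The median thus covers the 7 alone, and the cause of the zeros was not tested. mt-Nd6, the one encoded on the opposite strand from the others, rose. It had 276, 234, 244 and 177 CPM in mutants, against 79.6, 51.7 and 48.5 CPM in controls (1.96 ± 0.26, adjusted p = 0.00878). The call was lost with unstranded counts, with the replicate block and without control libraries 2 or 3.

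The 83 cytosolic ribosomal protein genes, whose products build the ribosomes outside mitochondria, lay on the other side. Of 80 tested, 1 rose and 19 fell, at a median fold change of −0.32, which was −0.18 with upper-quartile scaling and 0.03 with total-count scaling. Rps29 had 141.5, 160.9, 141.6 and 143.4 CPM in mutants, against 383, 411 and 450.3 CPM in controls, and fell by 1.498 on the log2 scale (SE 0.15, adjusted p = 0.00509). The count of falls was 21, 12, 6 and 10 without mutant libraries 1 to 4, and 2, 2 and 1 without control libraries 1 to 3. Over all genes, the fits without mutant libraries 1 to 4 called 2089 of 14903 (14%), 617 of 14958, 374 of 14933 and 556 of 14824 lower. Those without control libraries 1 to 3 called 84 of 15144, 112 of 15190 and 92 of 15195 lower. Many processed copies of these genes exist, 289 of them annotated as pseudogenes, and the sharing of reads with them was not measured, so these counts are uncertain. The difference between mitochondrial and cytosolic ribosomal protein genes was not tested.

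**Figure D4:**
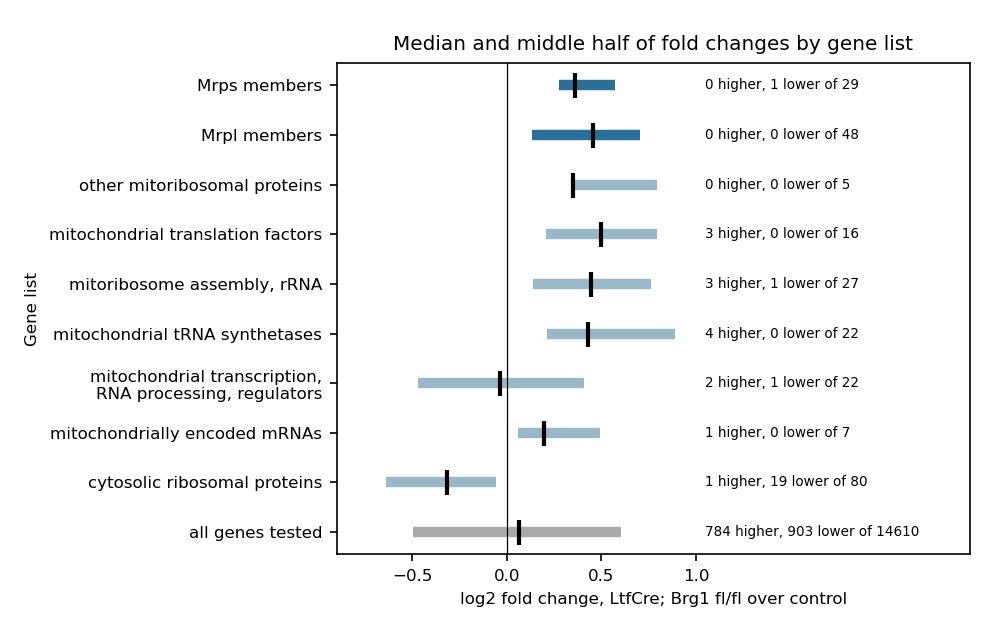
Median (black tick) and middle 50% (bar) of log2 fold change, LtfCre; Brg1 fl/fl over control (x axis), for the members by subunit name, 7 lists of other genes and all genes tested (y axis), with the genes called higher and lower at an adjusted p under 0.05 printed at the right. Both member groups lie right of 0, at 0.36 and 0.46, and the cytosolic ribosomal proteins left of it, at −0.32 (0.03 with total-count scaling).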

How the data were processed

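Uteri were minced and digested, epithelial cells were selected magnetically by EpCAM, and stranded mRNA libraries were prepared (KAPA), per the labels' protocols. The authors deposited whole-number counts of reads per gene from STAR for each library, not normalized, after trimming with cutadapt and Trim Galore and alignment to mm10, per the submitters' processing notes, which also name FastQC and DESeq2 without versions. They also deposited their own comparison, with log2 fold changes, a p-value and adjusted p per gene. The deposited mean signal, Wald score and shrunken values of that table were not used.

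Reverse-stranded counts were used, which held 94.8% to 95.6% of stranded reads. Reads assigned to no gene (unmapped, multimapping, outside genes or ambiguous) stayed out of library sizes and tests. Of 53379 gene IDs, 53274 matched GENCODE M21 (GRCm38), 70 of 78 members at the same version. Genes passing filterByExpr were fitted in edgeR 4.0.16 (R 4.3.3) with TMM scaling, genotype as the only term and the two-sided quasi-likelihood F test, adjusted by Benjamini-Hochberg over 14610 genes, threshold 0.05. SE is the fold change over the square root of F. DESeq2 1.42.0, limma-voom 3.58.1, other scalings, no filter, unstranded counts, a replicate block and leaving out each library were alternatives. The 3 control pools and 4 mice are the replicates, so p-values measure the spread between them. Data were also simulated for the mutant against control comparison (14610 genes). The test recovered 0 of 201 changes of 2-fold, 62 of 201 of 4-fold and 122 of 198 of 8-fold. Far fewer genes were changed there than were called in the real data, which makes the adjusted threshold stricter. These shares thus do not give the power of the real fit, which called Mrps28 at a log2 fold change of −0.82. Small differences can still be missed at this number of libraries.

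Members and lists were chosen with earlier results of these data known. Named members were those past the threshold, the 5 highest and 5 lowest per kilobase, up to 6 without overlap at a mean of at least 5 CPM, and 15 set by role. From each list up to 3 genes were named that passed and averaged 1 CPM or more, or else the most abundant gene. A gene that this rule names is not reported here. Mrpl49, Mrpl22, Mrpl14, Mrps34, Mrps25, Mrpl33, Mrps11, Mrpl46, Mrpl53 and the back-to-back partners were named for their position, counting or values. Shared sequence was measured as 50-base words found in another gene's exons. Protein lengths and identities were not computed.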

Additional observations from a re-analysis of the deposited data

Results flagged for a closer look

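Among the 77 tested members and the members' median, 2 levels stood far from the other mutant libraries, the gap to the nearest being most of the group's range. Chance alone marks about 1 group in 20, and 78 groups were looked at. Mrps18b was at 30.5 CPM in mutant library 3, against 18.3, 20.1 and 19.1 CPM in mutants 1, 2 and 4 and 15.006, 21.3 and 17.8 CPM in controls. Mrpl33, a small protein of the large subunit, was at 58.5 CPM in mutant library 2, against 18.0, 17.7 and 15.6 CPM in mutants 1, 3 and 4 and 21.4, 23.6 and 33.6 CPM in controls. Mrpl33 was named after its values were seen. The cause was not tested in either gene.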

How the results depend on the processing

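Signs held in every alternative for 24 of the 30 named members. The other 6 were Mrpl12 and Mrps18b (unstranded counts), Mrps18a (total counts), and Mrps12, Mrpl57 and Mrpl54 (upper-quartile and total-count scaling among others). DESeq2 called 1789 genes higher and 1634 lower over all genes (784 and 903 in edgeR), 12 and 2 members, 4 Mrps genes higher, 8 Mrpl genes higher and 1 lower, 6 translation factors, 5 assembly factors and 2 mitochondrial mRNAs higher, 1 synthetase and 2 regulators lower, and 4 higher and 29 lower cytosolic ribosomal proteins. limma-voom called 2 of the cytosolic ribosomal proteins higher. Without a filter on low counts 355 genes were higher, with 0 members and 0 Mrps genes lower, 0 assembly factors higher, 1 synthetase higher, 1 regulator higher and 0 lower, and 0 higher and 10 lower cytosolic ribosomal proteins. With unstranded counts 1 synthetase and 0 mitochondrial mRNAs were higher, 0 regulators lower and 2 cytosolic ribosomal proteins higher. Upper-quartile scaling called 1178 genes higher, 2 members (both Mrpl) higher, 0 members (0 Mrps) and 0 regulators lower, and 2 higher and 12 lower cytosolic ribosomal proteins, whose median was −0.18. Total counts called 2199 genes higher and 532 lower. They gave 17 members higher and 0 lower at a median of 0.76, 5 Mrps genes higher and 0 lower (0.72), and 12 Mrpl genes higher (0.82). The other mitochondrial ribosomal proteins had a median of 0.71, translation factors 7 higher (0.86), assembly factors 7 higher and 0 lower (0.79), synthetases 7 higher (0.78), regulators 4 higher and 0 lower (0.32), mitochondrial mRNAs 2 higher (0.55), and cytosolic ribosomal proteins 5 higher and 7 lower (0.033). Of the calls over all genes, 46.5% were higher in the main scaling, 62.6% with upper-quartile scaling and 80.5% with total counts. Of all genes tested, 5.37% were called higher in the main fit, 12.4% by DESeq2 and 1.22% without a filter. With upper-quartile scaling this share was 8.06%, and with total counts 15.1%. The counts by list are to be read beside these shares.

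Leaving out each library in turn gave 45 to 2314 genes higher and 84 to 2089 lower. It gave 0 to 28 members higher and 0 to 1 lower, with 0 to 6 Mrps and 0 to 22 Mrpl genes higher and 0 to 1 Mrps gene lower. Ranges of higher calls were 0 to 3 for the other mitochondrial ribosomal proteins, 0 to 7 for translation factors, 0 to 7 for assembly factors, 0 to 9 for synthetases, 0 to 4 for regulators, 0 to 1 for mitochondrial mRNAs and 0 to 3 for cytosolic ribosomal proteins. Ranges of lower calls were 0 to 1 for assembly factors, 0 to 4 for regulators and 1 to 21 for cytosolic ribosomal proteins. The regulators' median ran from −0.0890 to 0.20 and that of mitochondrial mRNAs from 0.14 to 0.44. The cause of these moves was not tested.

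The replicate numbers do not pair the samples. Same-numbered mutant and control libraries had deviations from their group means that correlated at −0.02, −0.36 and 0.16 over 14610 genes. Between differently numbered libraries the correlations ran from −0.29 to 0.35. With the replicate block 2 genes were called higher and 0 lower, with 0 in every list, higher and lower, and the members' median was 0.38. Depth is lower in mutants, and 3 control pools limit what can be called.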
